A study of Mus musculus with 8 samples.

Results

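The comparison sets sorted eye-field cells grown from mouse embryonic stem (ES) cells against the embryonic eye, and it uses 2 of the 8 single-colour Agilent expression arrays of the study, 1 a side. The Wi+Act RAX-positive cells were derived from the male 129/Ola ES cell line K/l-EB5, which carries green fluorescent protein (GFP) at Rax. They were neuralized in a medium whose B27 supplement lacked vitamin A, received the Wnt inhibitor IWR-1-endo (Wi) at 5 µM from day 3 and Activin A (Act) at 10 ng/ml 12 h later, and were trypsinized and sorted for GFP at 10 days in vitro. The eye was dissected at E12.5 from 3 Sv129s6 embryos of mixed sex, and was neither cultured nor sorted. The other arrays held the RAX-negative cells sorted from those cultures, RAX-positive and RAX-negative cells given the inhibitor and the Hedgehog agonist SAG (100 nM), a Wi control with the inhibitor alone from another male ES line, E14Tg2A, and the diencephalon/hypothalamus and cortex of the same stage. The RAX-positive and eye arrays shared a slide, and the Wi control, for which no sort is named, was on another. RNA of 3 sets of experiments was pooled for each array, so there is no replicate, no standard deviation and no test, and every call below is a rule of size. The question is what the cultured eye-field cells share with the embryonic eye and what they lack.

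The vertebrate eye begins in the anterior neural plate as the eye field, marked by Rax, Six3, Six6, Lhx2 and Pax6, which grows out as the optic vesicle and folds into a cup. Its inner layer becomes the neural retina, its outer layer the retinal pigment epithelium, and its base the optic stalk, while the overlying surface ectoderm forms the lens. The dissected eye also brings neural crest mesenchyme, muscle, vessels, blood and skin. Activin and Nodal, ligands of the TGF-beta family, act in the early embryo on mesoderm, endoderm and the ventral midline and, later, on the pigment epithelium. In RNA from a whole tissue, fewer cells of a type and less RNA per cell cannot be told apart.

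A level here is the log2 of a gene's signal over the 75th percentile of its array, so that 0 is the 75th percentile, and levels are compared between arrays for 1 gene and not between genes. A gene was called higher or lower in the RAX-positive cells where the brighter array was well above background and the difference was at least 2-fold. Where the dimmer array did not rise well above background, a bound is printed ("at least"). It is reckoned from the gene's own level there or, if higher, from the faintest well-above-background spot on it. Such a bound holds for this processing only. The reading error of a log2 difference from the scanner software had a median of 0.20, or 1.15-fold, which covers the reading of an array alone. Of 34631 genes, 29838 were detected, and 19376 of these (64.9%) were within 2-fold and above background on both arrays. The RAX-positive cells had 6761 genes (22.7% of those detected) higher and 3279 (11.0%) lower than the eye. Of the higher genes 2868 were not above background in the eye, and of the lower genes 839 were not above background in the RAX-positive cells.

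The split between higher and lower genes depended on the scaling. Higher genes made up 67.3% of the calls as given here, 53.5% after quantile scaling, 49.3% with another background correction (normexp) and 47.9% in the authors' deposited values. The median difference of all detected genes was 0.33, against which the medians of gene lists below are to be read. Counts of higher and lower genes in a list are likewise to be read against 22.7% and 11.0% of all detected genes. In the authors' deposited values 2591 of the higher genes (38.3%) and 2803 of the lower genes (85.5%) were again at least 2-fold apart in the same direction. Differences printed below with a bound can be smaller than it in other processing. Cer1 had a log2 difference of 2.93 in the authors' values and 1.92 with normexp, and Crx -1.66 and -0.72, all short of their bounds. The RAX-positive array had 79.3% of its spots well above background, against 75.0% for the eye. Olfactory and vomeronasal receptor genes, which belong to the nose, were well above background for 44.2% of 1359 genes on the RAX-positive array, against 24.6% on the eye array and 11.7% to 23.9% on the other arrays. Of these receptor genes 655 were detected, of which 416 were called higher and 32 lower, to be read against the same 22.7% and 11.0%. The part of such dim signal in the higher calls was not tested.

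**Figure D1:**
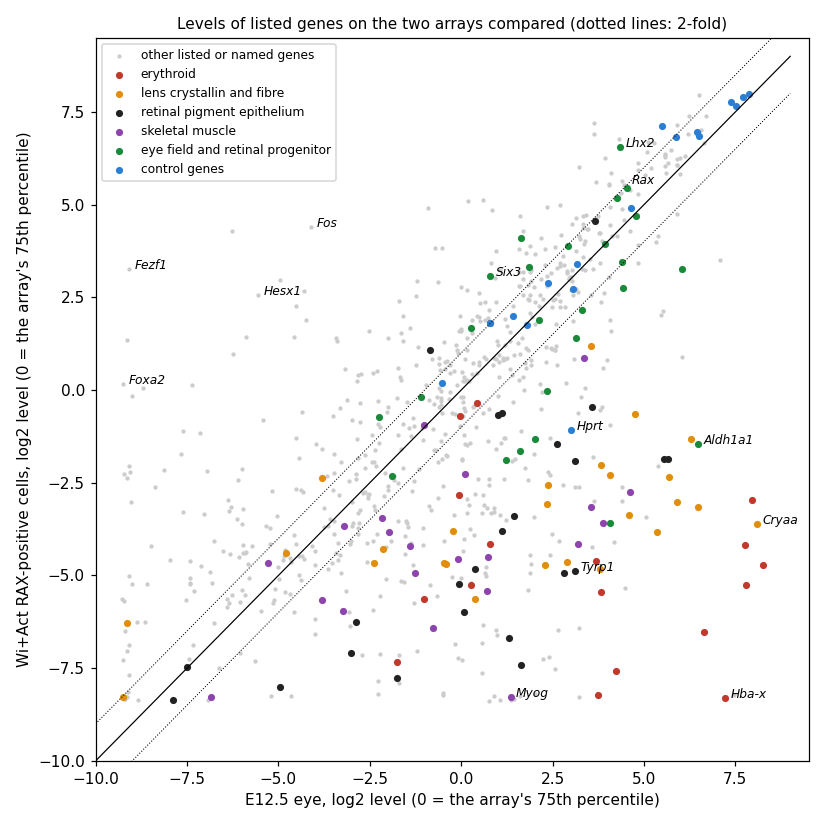
Level of each listed or named gene in Wi+Act RAX-positive cells (vertical axis) against E12.5 eye (horizontal axis), both as log2 over the array's 75th percentile, with 1 point a gene and dotted lines at 2-fold. Lens, pigment, muscle and red cell genes lie far below the diagonal, as Cryaa does at -3.61 against 8.08, while Lhx2 and Six3 of the eye field lie above it.

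Marker genes matched the labels. The eye array was bright for lens (Cryaa 8.08), pigment (Pmel 5.55) and retinal genes (Atoh7 5.05). Rax, the homeobox gene on which the cells were sorted, was at 5.45 in the RAX-positive cells, 2.30 in the RAX-negative cells and -4.07 in the Wi control, and at 4.53 in the eye. Since the sort used it, the level of Rax is a check and no finding. Red cell genes, which the eye carries with its vessels, had a median level of -4.98 over 18 genes in the RAX-positive cells, against 3.72 in the eye.

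**Figure D2:**
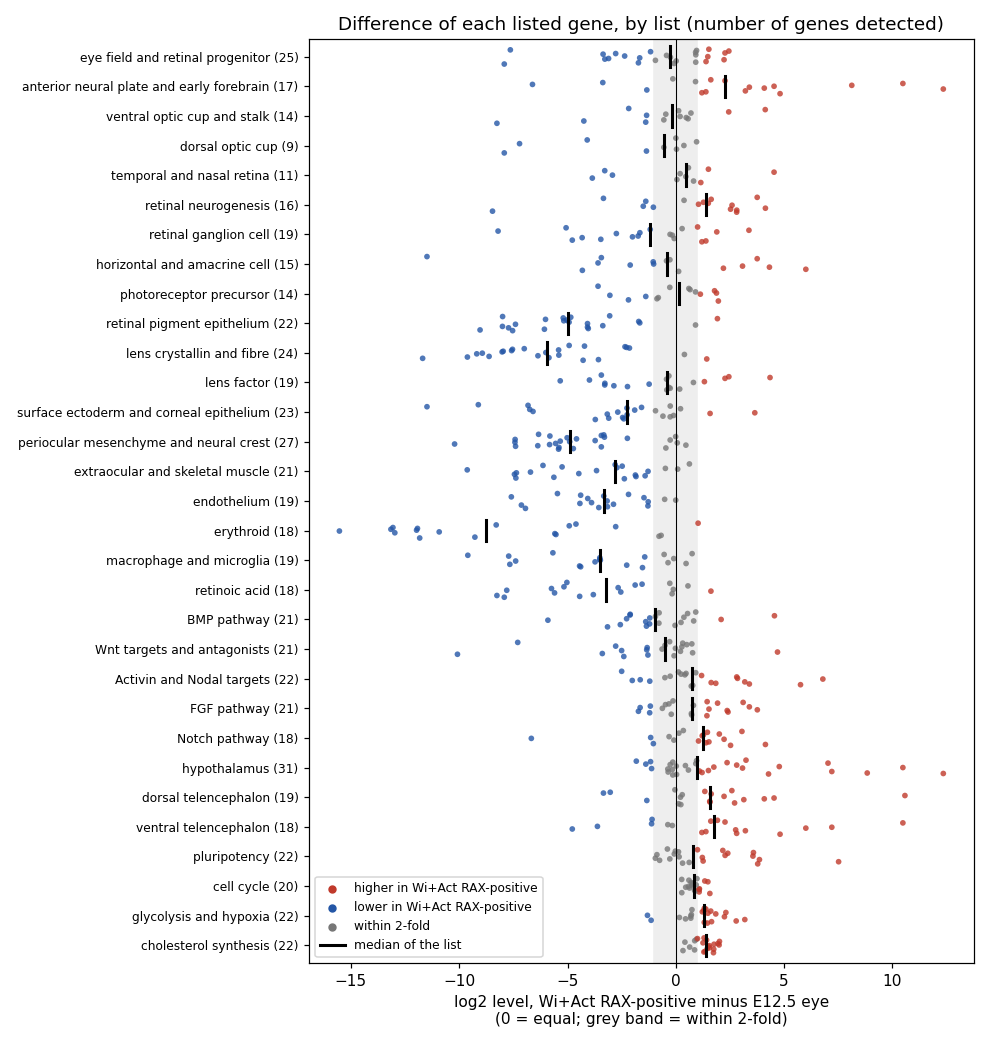
Log2 difference of each detected gene, Wi+Act RAX-positive minus E12.5 eye, by gene list, with 1 point a gene, the list's median as a black bar and the 2-fold band in grey. The lists of lens fibre, pigment epithelium and red cell genes lie to the left with medians of -5.93, -4.98 and -8.79, and the anterior neural plate list to the right with 2.27.

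Six3, Lhx2 and Tbx3 of the eye field were at or above their level in the eye, while Six6, Pax6 and genes of the later retinal progenitor were below it. Of the 25 eye field and retinal progenitor genes, all detected, 6 were higher, 10 lower and 9 within 2-fold in the RAX-positive cells. The share of higher ones was near the 22.7% of all detected genes. Six3, which represses Wnt signals in the anterior neural plate, was at 3.07 in the RAX-positive cells and 0.79 in the eye, 4.83-fold higher. Lhx2, required for the optic vesicle to form a cup (probe at mm9 chromosome 2, 38224933 to 38224992), was at 6.56 against 4.34 in the eye, 4.68-fold higher. Sox2, a progenitor factor of the whole neural tube, was 5.46-fold higher at 4.10 against 1.65, and Nr2e1 and Hes1, which keep progenitors from differentiating, were 2.78-fold and 2.63-fold higher. Tbx3, the eye field repressor of Bmp4 in frogs, was within 2-fold at 3.88 against 2.92, as were the Wnt receptor gene Fzd5 (-0.18 against -1.10) and the cyclin Ccnd1 (4.70 against 4.78). Six6, which comes on after Rax and sustains retinal growth, was 2.24-fold lower at 2.15 against 3.31.

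Other genes of the eye field and retinal progenitor list were lower. Rorb, Mab21l1 and Mab21l2, needed for retinal cell types and for eye growth, were 10.3-fold, 9.69-fold and 8.60-fold lower. Pax6, the regulator of both retina and lens, was at -0.01 against 2.35 in the eye, 5.14-fold lower, and stood at -5.68 in RAX-positive cells after SAG. The lens and surface ectoderm of the eye also express Pax6 and Mab21l1, so the retinal share of their eye level is not separated here. Sfrp2, a secreted Wnt antagonist, and Meis1, a cofactor of Pax6, were 6.85-fold and 3.18-fold lower.

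**Figure D3:**
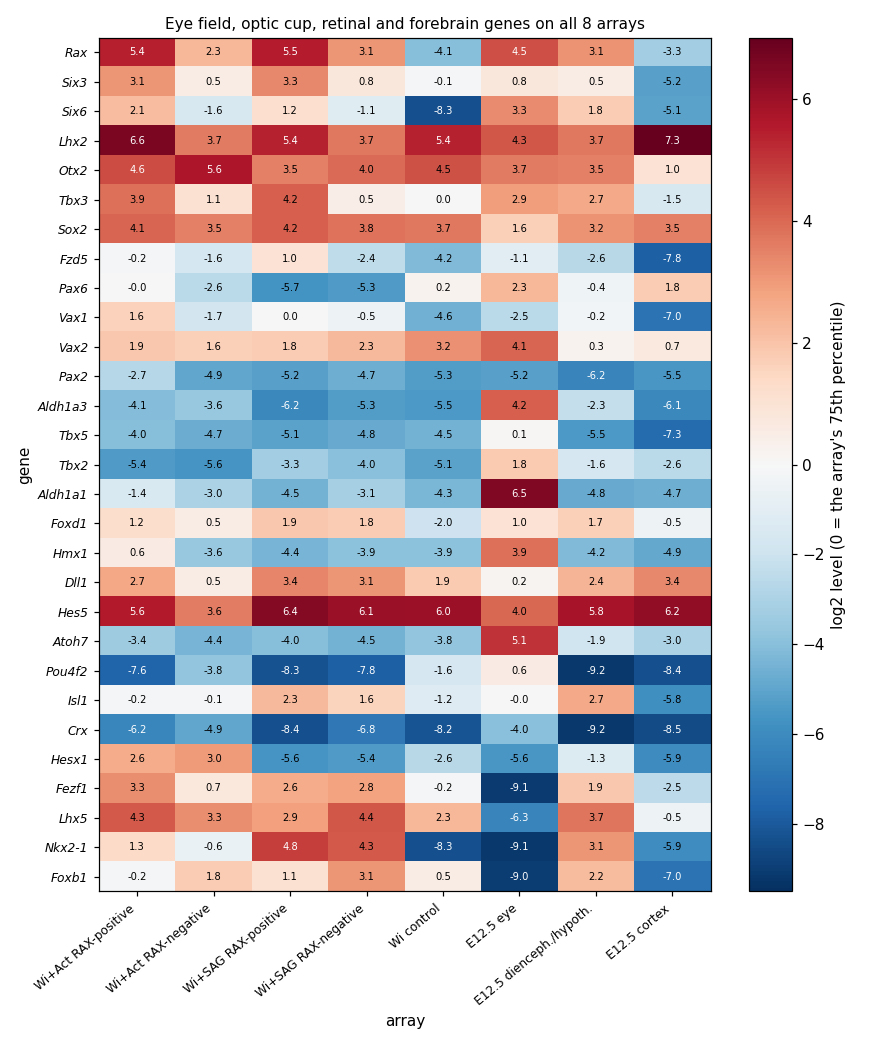
Log2 level (0 = the array's 75th percentile; red above, blue below) of eye field, optic cup, retinal and forebrain genes, with a row a gene and a column an array. Aldh1a1, Aldh1a3 and Atoh7 are red in the eye alone, whereas Fezf1, Nkx2-1 and Vax1 are blue in the eye and red in Wi+Act RAX-positive cells.

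Genes of the optic cup's axes were mixed, with 2 of 14 ventral and stalk genes higher and 5 lower. Vax1, a homeobox gene of the optic stalk and ventral midline, was at 1.59 in the RAX-positive cells, above every other array, and at -2.54 in the eye, 17.5-fold higher. Pax2 of the optic stalk was 5.44-fold higher at -2.73 against -5.18, a low level on both arrays. Vax2, a relative of Vax1 in the ventral retina, was 4.51-fold lower at 1.89 against 4.06. The enzymes that make retinoic acid on either side of the cup were both far lower: ventral Aldh1a3 was at -4.09 against 4.17 in the eye, 307-fold lower, and dorsal Aldh1a1 at -1.44 against 6.48, 242-fold lower. The T-box genes of the dorsal retina were low as well, with Tbx5 at -4.01 against 0.08 (17-fold lower) and Tbx2 at -5.38 against 1.83 (149-fold lower). None of the 9 detected dorsal genes was higher and 4 were lower. Bmp4, the dorsal signal, was 2.56-fold lower by its brightest probe, although its probes ranged from -1.36 to 0.85.

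Along the other axis of the retina, the temporal gene Foxd1 was within 2-fold of the eye (1.21 against 1.01). Hmx1, of the nasal retina and lens, was at 0.59 against 3.87, 9.73-fold lower, yet it stood at -3.57 or below in the other cultures. The Eph receptor gene Epha3 was 14.5-fold lower and its ligand gene Efna5 within 2-fold at 2.99 against 2.94. Over the list, 3 of 11 genes were higher and 3 lower.

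Most genes of neurogenesis were higher in the RAX-positive cells, and Atoh7 of the retina was far lower. Of 16 detected, 10 were higher and 5 lower, with a median of 1.39. The median level of the list was 0.79 in the RAX-positive cells and 0.47 in the eye, below 1.87 in diencephalon/hypothalamus and 1.76 in cortex. Among the other cultures it was 1.41 in the Wi control, 1.36 in RAX-positive cells after SAG and -0.39 in the RAX-negative cells after Activin. The Notch ligand genes Dll3 and Dll1 were 17.6-fold and 5.77-fold higher, with Dll1 at 2.70 against 0.17. Gadd45g and Insm1, of newly born neurons, were 6.05-fold and 2.83-fold higher. Atoh7, which is needed for retinal ganglion cells, went the other way with -3.41 in the RAX-positive cells and 5.05 in the eye, 353-fold lower. Its eye level was above all the other arrays, of which the highest was diencephalon/hypothalamus at -1.90. Neurog2 was 10.1-fold lower.

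Among the 19 ganglion cell genes, 5 were higher and 10 lower. Pou4f2, which acts after Atoh7, was not well above background in the RAX-positive cells and at 0.58 in the eye, at least 99.9-fold lower. Sncg, Ebf1 and Eya2 had log2 differences of -5.07, -4.78 and -4.33. Isl1, shared by ganglion cells and hypothalamic neurons, was level with the eye at -0.18 against -0.02, and the neuronal genes Elavl4 (0.95 against 1.02) and Rbpms (0.36 against 0.07) were within 2-fold too. Pou4f1, also of sensory ganglia and midbrain, was 3.71-fold higher. General neuronal genes were closer between the 2 arrays, with 7 of 22 higher, 3 lower and a median of 0.09. Tubb3, a tubulin of young neurons, was at 3.02 against 2.95, while diencephalon/hypothalamus was at 5.73.

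Horizontal and amacrine genes were mixed, with 5 of 15 higher and 7 lower. Tfap2b, of amacrine cells and also of surface ectoderm and neural crest, was not well above background in the RAX-positive cells and at 3.23 in the eye, at least 625-fold lower, and Foxn4, of retinal progenitors, was 19.9-fold lower at -0.47 against 3.85. The genes for making and loading GABA, which forebrain interneurons share, were higher: Gad1 at -1.15 and not well above background in the eye, at least 56.7-fold, and Gad2 4.59-fold. Ptf1a and Prox1 were within 2-fold at -4.56 against -4.29 and -2.32 against -1.89. Photoreceptor genes were dim on both arrays, with median levels of -4.70 in the RAX-positive cells and -4.68 in the eye. Thrb, of young cones, was 12.1-fold lower at -4.06 against -0.47, and Crx, the photoreceptor homeobox gene, was at least 4.22-fold lower. Otx2 and Prdm1, which act before Crx, were within 2-fold, with Otx2 at 4.57 against 3.66. None of the 4 photoreceptor genes called higher was at least 2-fold higher in the authors' deposited values.

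Pigment epithelium genes were far lower in the RAX-positive cells. Of 22 detected pigment epithelium genes, 20 were lower and 1 higher, with a median of -4.98. Of the 24 measured, 9 were not well above background in the RAX-positive cells, against 2 in the eye. Mitf, the factor that directs pigment cell genes, was at -0.47 in the RAX-positive cells and 3.57 in the eye, 16.5-fold lower. The enzymes of melanin synthesis were lower by more: Tyrp1 was at -4.89 against 3.11 (256-fold), Dct, also made in cortex (3.98), at -1.87 against 5.67 (186-fold) and Tyr at -3.41 against 1.44 (28.9-fold). Pmel, the fibre protein of the melanosome, was 169-fold lower, and the melanosome genes Oca2 and Gpnmb, both not well above background in the RAX-positive cells, were at least 166-fold and 207-fold lower. Stra6, the receptor through which the pigment epithelium takes up retinol, was 32.7-fold lower, and Rlbp1, which carries retinal in the visual cycle, 30.5-fold. Otx2, which also specifies the pigment epithelium, was within 2-fold as given above. Trpm1 was called higher by its brightest probe (3.79-fold), but its probes ranged from -13.57 to 1.92 in log2, so its direction is unsettled. Rpe65 and Best1, of the mature epithelium, were detected on neither array. Melanocytes use the same melanin genes, so eye values can include them.

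Several melanin genes hold before their start a sequence that Mitf is known to read, the M-box with the core TCATGTG, and the promoters of the 3 synthesis enzymes are shown because these genes were lower together with Mitf. The windows are the 250 bases before the start in RefSeq, build GRCm38.p6, read along the gene 5′ to 3′, with matches on either strand in capitals: Tyr at chr7:87493513-87493762 (minus strand), Tyrp1 at chr4:80833963-80834212 (plus) and Dct at chr14:118052247-118052496 (minus).
Tyr: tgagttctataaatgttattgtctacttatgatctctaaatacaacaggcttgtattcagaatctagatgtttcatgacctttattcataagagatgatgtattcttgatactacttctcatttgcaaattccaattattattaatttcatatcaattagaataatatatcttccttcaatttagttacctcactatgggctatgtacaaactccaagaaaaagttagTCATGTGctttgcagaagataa
Tyrp1: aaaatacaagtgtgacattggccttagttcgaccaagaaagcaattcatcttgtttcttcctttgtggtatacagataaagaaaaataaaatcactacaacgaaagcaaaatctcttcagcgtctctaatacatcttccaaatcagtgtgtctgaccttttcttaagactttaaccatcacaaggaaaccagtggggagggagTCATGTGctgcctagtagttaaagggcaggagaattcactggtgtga
Dct: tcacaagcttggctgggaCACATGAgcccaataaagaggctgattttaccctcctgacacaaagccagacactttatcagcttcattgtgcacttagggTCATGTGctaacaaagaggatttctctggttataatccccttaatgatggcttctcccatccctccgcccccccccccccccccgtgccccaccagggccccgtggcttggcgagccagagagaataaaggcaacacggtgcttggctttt
The match nearest the start lay 15 bases before it in Tyr, 40 in Tyrp1 and 144 in Dct. TCATGTG was found in 5 of the 17 pigment epithelium genes with a RefSeq promoter (Dct, Slc24a5, Trpm1, Tyr and Tyrp1) and in 3.25% of 32851 RefSeq promoters. The shorter core CATGTG, which every TCATGTG contains, was found in 9 of 17 and in 12.3% of all. The M-box was known from melanin genes beforehand, so these shares are no finding of these arrays, and the direction of Trpm1 is unsettled. A match describes the letters and does not show binding.

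Lens genes were lower almost throughout. Of 24 detected crystallin and fibre cell genes, 22 were lower, 1 higher and 1 within 2-fold, and all 22 were at least 4-fold lower. Cryaa, the chaperone crystallin that is most abundant in lens, was at -3.61 in the RAX-positive cells and 8.08 in the eye, 3306-fold lower (probe at mm9 chromosome 17, 31818550 to 31818609; its probes ranged from -11.69 to -9.27). The beta crystallin gene Cryba1 was at -3.15 against 6.47 (789-fold lower) and the gamma crystallin gene Cryga at -3.02 against 5.92 (489.5-fold lower). Crybb1 was at -0.65 in the RAX-positive cells, against 4.75 in the eye, 42.2-fold lower, and stood at -4.60 in the RAX-negative cells. The membrane and cytoskeleton genes of fibre cells, Mip and Bfsp1, were 30.4-fold and 19.4-fold lower. Gamma crystallin genes are near-identical in places, and a probe can take signal from more than 1 of them.

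Lens regulators were divided. Pitx3 and Foxe3, which act in the lens itself, were 15.9-fold and 4.70-fold lower, with Pitx3 at -3.76 against 0.23. Maf, which activates crystallin genes and is also expressed outside the lens, was within 2-fold at 3.00 against 2.19. Sox1, Sox2 and Six3, shared by lens and neural tissue, were all higher, Sox1 by 20.4-fold at 3.84 against -0.51, with its probes between 1.84 and 4.35. Over the list, 4 of 19 were higher, near the 22.7% of all detected genes, and 8 lower.

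The Maf recognition element holds the letters TGCTGA on each side, and 3 crystallin promoters that hold these letters are shown because their genes were lower while Maf was within 2-fold. The windows are again the 250 bases before the RefSeq start, GRCm38.p6, 5′ to 3′ along the gene, with TGCTGA on either strand in capitals: Cryaa at chr17:31677681-31677930 (plus strand), Cryba1 at chr11:77725294-77725543 (minus) and Crybb1 at chr5:112255570-112255819 (plus).
Cryaa: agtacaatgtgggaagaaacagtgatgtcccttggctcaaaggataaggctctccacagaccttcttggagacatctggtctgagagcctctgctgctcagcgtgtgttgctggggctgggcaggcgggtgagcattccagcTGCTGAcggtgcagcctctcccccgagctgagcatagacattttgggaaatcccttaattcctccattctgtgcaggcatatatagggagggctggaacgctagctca
Cryba1: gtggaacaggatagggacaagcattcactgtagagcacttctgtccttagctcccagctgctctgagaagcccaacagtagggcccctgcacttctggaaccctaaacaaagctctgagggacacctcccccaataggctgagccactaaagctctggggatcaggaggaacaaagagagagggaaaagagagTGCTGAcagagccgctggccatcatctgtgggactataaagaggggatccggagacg
Crybb1: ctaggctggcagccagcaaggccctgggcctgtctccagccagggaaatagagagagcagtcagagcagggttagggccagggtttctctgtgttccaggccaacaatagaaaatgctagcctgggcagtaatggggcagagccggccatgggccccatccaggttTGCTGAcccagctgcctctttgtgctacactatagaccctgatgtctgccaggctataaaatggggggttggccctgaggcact
The match lay 102 bases before the start in Cryaa, 51 in Cryba1 and 78 in Crybb1. TGCTGA was found in 10 of the 15 crystallin genes with a RefSeq promoter and in 16.1% of all 32851 promoters. As with the M-box, the letters are a description of the window and not a site.

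The other cell types of the dissected eye were low in the sorted cells. For surface ectoderm and corneal epithelium, 15 of 23 genes fell below the eye and 2 lay above it (median -2.26). The basal keratin genes Krt5 and Krt15 were lower by log2 differences of -6.74 and -6.59, and Wnt6, a ligand of the surface ectoderm, was at least 422-fold lower. Krt8 and Krt18, keratins of simple epithelia that ES cell cultures also express, were within 2-fold at 2.09 against 1.87 and 3.91 against 4.84. Epcam was level too, at -0.63 against -0.53, whereas the epithelial cadherin Cdh1 was 13.2-fold lower.

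Of 27 periocular mesenchyme and neural crest genes, 22 were lower and none higher, with a median of -4.90. Foxc2, a regulator of the anterior chamber, was not well above background in the RAX-positive cells and at 2.01 in the eye, at least 269-fold lower, and its relative Foxc1 was at -2.62 against 3.21, 56.9-fold lower. The matrix genes Lum and Col3a1 were 172-fold and 169-fold lower. Eya1 (6.11 against 5.65) and Sox9 (1.32 against 1.33) were within 2-fold.

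Muscle, vessel and blood genes followed the same course. Of 21 muscle genes 18 were lower, among them Myog, which drives muscle differentiation and was not well above background in the RAX-positive cells, at least 171-fold lower, and the embryonic myosin gene Myh3, 175-fold lower. Of 19 endothelial genes 17 were lower, with Cdh5, the vascular cadherin, at least 101-fold lower. Of 18 red cell genes 15 were lower, with a median of -8.79. The embryonic globin gene Hba-x was not well above background in the RAX-positive cells and at 7.22 in the eye, at least 9992-fold lower. Of 19 macrophage and microglia genes 14 were lower and none higher, among them Pf4 by at least 355-fold. The brain tissues also carried blood and vessels, with Hba-x at 6.24 in diencephalon/hypothalamus and 7.15 in cortex.

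Extracellular matrix genes were mostly lower, 16 of 27, with 2 higher. The fibrillar collagen genes of mesenchyme, Col1a1 and Col1a2, were 42.1-fold and 10.8-fold lower, and Col9a1 was 128-fold lower by its brightest probe, with probes from -7.00 to 1.70. The laminin genes Lama1 (3.44 against 3.80) and Lamb1 (4.28 against 4.62), of basement membranes, were within 2-fold.

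Retinoic acid genes had the lowest median of the signalling lists. Of 18 detected, 13 were lower and 1 was higher, with a median of -3.24. The lower genes covered synthesis and response. Aldh1a2, the synthesis enzyme of the periocular mesenchyme, was 21.7-fold lower at -3.38 against 1.06, beside Aldh1a1 and Aldh1a3 above. Several genes that retinoic acid itself induces were lower as well. Dhrs3 was at -4.24 against 3.56 (224-fold), Rarb at -2.62 against 3.12 (53.5-fold, probes from -5.74 to -0.33) and Cyp26a1 at -4.94 against 0.66 (48.5-fold). Crabp2, a binding protein, was level at 5.82 against 5.99, as was the receptor gene Rara at 2.93 against 3.04. All the cultures shared the medium without vitamin A, so medium and source of the cells cannot be told apart in this contrast. Dhrs3 stood at 1.28 in the RAX-negative cells after Activin and 1.13 in the Wi control. The median level of the whole list was 2.95 in the eye, -0.14 in diencephalon/hypothalamus and -0.98 in cortex. Among the cultures it was -1.45 in the RAX-positive cells, -0.42 in the RAX-negative cells after Activin, -2.33 in RAX-positive cells after SAG and 0.15 in the Wi control. The part of the medium was not tested.

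Nodal and its antagonists were higher. Of 22 detected, 9 were higher and 4 lower, with a median of 0.75. Nodal was at -0.49 in the RAX-positive cells and -3.31 in the eye, 7.03-fold higher. Its antagonist and target genes were higher too: Lefty1 was at 2.27 against -4.52, 111-fold, and Lefty2 at 0.45 against -2.40, 7.20-fold. These 3 were at -3.16, -6.46 and -1.84 in RAX-positive cells after SAG, and at 2.53, 5.69 and 4.34 in the RAX-negative cells after Activin. Fst, which binds activin, was 3.1-fold higher, and the feedback genes Smad7 (1.08 against 0.16) and Skil (2.57 against 2.15) were within 2-fold. The gene for the Activin A subunit itself, Inhba, was 4.03-fold lower, and Tgfb2, of lens and mesenchyme, 5.66-fold lower.

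**Figure D4:**
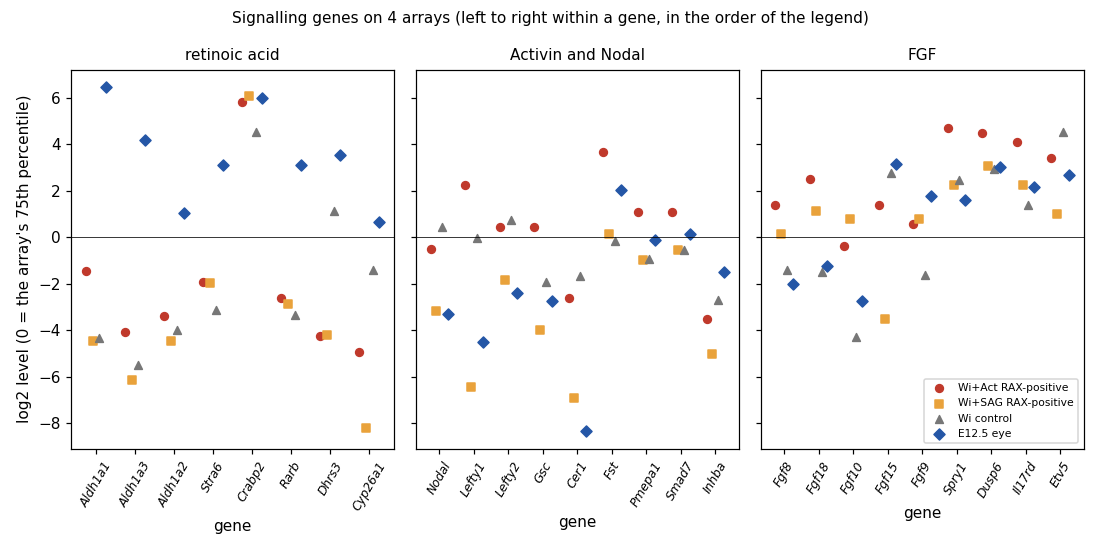
Log2 level (0 = the array's 75th percentile) of retinoic acid, Activin/Nodal and FGF genes in Wi+Act RAX-positive cells, Wi+SAG RAX-positive cells, the Wi control and E12.5 eye, with a point an array. For Aldh1a1, Aldh1a3 and Stra6 the eye stands above these 3 cultures, whereas for Lefty1, Fgf8 and Spry1 the Wi+Act RAX-positive cells stand above the other 3 arrays plotted.

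FGF signalling, which in the eye keeps the neural retina from becoming pigment epithelium, had 9 of 21 genes higher and 4 lower, with a median of 0.73. Fgf8, the signal of the anterior neural ridge and optic stalk, was at 1.39 against -2.0, 10.5-fold higher. Fgf18 was 13.6-fold higher and Fgf10 5.32-fold. The feedback inhibitors that FGF induces were higher as well, Spry1 at 4.70 against 1.60 (8.62-fold), Il17rd 3.81-fold and Dusp6 2.71-fold. Both of the FGF genes best known from the optic cup were lower, with Fgf15, of retinal progenitors, at 1.41 against 3.14 (3.31-fold) and Fgf9 at 0.59 against 1.77 (2.26-fold). Etv4, a target of the pathway, was within 2-fold at 0.67 against 0.88.

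BMP and Wnt genes ran lower. Of 21 BMP pathway genes 10 were lower and 2 higher, with a median of -0.94. The ligand genes Gdf6, which patterns the dorsal eye, and Bmp2 were lower by at least 13.8-fold and by 8.90-fold, and the target genes Msx1 and Msx2 were 4.33-fold and 4.30-fold lower. Of the higher genes, Grem1 is a BMP antagonist (3.03 against 0.93, 4.27-fold) and Id4 a neural progenitor gene (3.83 against -0.72, 23.5-fold). Of 21 Wnt target and antagonist genes 9 were lower and 1 higher. Axin2, a general readout of Wnt signalling, was at -3.22 against -0.82, 5.28-fold lower, and the target gene Lgr5 was 5.66-fold lower. The cultures had received a Wnt inhibitor and the eye had not, which cannot be told apart here from culture, sort and the make-up of the tissue. The antagonist genes Dkk2 and Wif1, not well above background in the RAX-positive cells, were at least 393-fold and 67.3-fold lower, and Frzb was 25.9-fold higher. The target genes Lef1 (2.45 against 2.23) and Sp5 (-1.94 against -2.45) were within 2-fold.

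Among Wnt ligands and receptors, 8 of 22 were lower and 2 higher. The higher ones were receptor genes, Fzd8 at 1.32 against -1.60 (7.58-fold) and Fzd3 3.00-fold, and the lower ones included Fzd4, 6.42-fold, and the ligand genes Wnt4, 113-fold, and Wnt3, 10.6-fold. Of 17 Hedgehog genes 4 were higher, near the 22.7% of all detected genes, and 4 lower. Shh was at -2.05 and not well above background in the eye, at least 30.3-fold higher, and the receptor and target gene Ptch1 was 3.90-fold higher at -0.30 against -2.27. Gli1 was within 2-fold by its brightest probe (2.55 against 3.05), with probes from -0.50 to 2.92. The coreceptor genes Cdon and Boc were 8.99-fold and 3.15-fold lower.

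The Notch pathway had 11 of 18 genes higher and 3 lower, with a median of 1.25. The receptor gene Notch1 was at 0.34 against -1.67, 4.02-fold higher, and the targets Nrarp and Hes5 were 8.30-fold and 2.89-fold higher. Hes5 stood at 5.57 in the RAX-positive cells, 5.76 in diencephalon/hypothalamus and 6.23 in cortex, against 4.04 in the eye. Heyl, a target of vessels and smooth muscle, was at least 59.3-fold lower, and Jag1, a ligand of the lens and ciliary margin, 2.24-fold lower.

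Genes of the anterior neural plate and early forebrain were mostly higher. Of the 17 in this list, 12 were higher and 3 lower, with a median of 2.27. The median level of the list was 1.40 in the RAX-positive cells and 1.44 in diencephalon/hypothalamus, against -0.79 in the eye and -1.58 in cortex. Among the other cultures it was 1.19 in the Wi control, 0.96 in RAX-positive cells after SAG and 0.74 in the RAX-negative cells after Activin. Hesx1, a repressor of the anterior neural plate and pituitary, was at 2.57 in the RAX-positive cells and -5.55 in the eye, 279-fold higher (probe at mm9 chromosome 14, 27815304 to 27815363). It was as high in their RAX-negative neighbours (3.00) and at -5.64 in RAX-positive cells after SAG. Fezf1, of the early forebrain and hypothalamus (probe at mm9 chromosome 6, 23195360 to 23195419), was at 3.28 and not well above background in the eye, at least 1217-fold higher. Fezf2, of the telencephalon, was 17-fold higher. Irx3, of more posterior brain and of surface ectoderm, was 98.3-fold lower at -2.99 against 3.63.

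Of 31 hypothalamus genes, 15 were higher and 4 lower. Nkx2-1, the regulator of the ventral forebrain, was at 1.34 and not well above background in the eye, at least 318-fold higher, below its level of 3.09 in diencephalon/hypothalamus and 4.82 in RAX-positive cells after SAG. Foxb1, of the mammillary region, was at least 112-fold higher and Gsx1 147-fold higher. The terminal hypothalamic genes stayed low: Pomc was 2.61-fold lower at -0.99 against 0.40, with diencephalon/hypothalamus at 2.77, and Npy was at -4.64 against -4.66. Of the 15 higher genes 8 rested on an eye level that was not well above background, and the count was 7 where both arrays had to be above it and 10 in the authors' deposited values.

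In the dorsal telencephalon list 11 of 19 genes were higher and 3 lower. Lhx5, of the diencephalon and cortical hem, was at 4.30 against -6.28 in the eye, 1530.5-fold higher, and Dmrta2 was 2.99-fold higher at 2.01 against 0.43. Cortical genes were called higher at levels far below cortex, such as Tbr1 at -1.84 against -4.43, with cortex at 4.75, and Emx1 at -4.39 against -5.95, with cortex at 2.75. In the ventral telencephalon list 12 of 18 were higher and 4 lower, among them Dlx5 (9.27-fold) and Dlx2 (2.62-fold, at 2.15 against 0.77). Of 18 detected midbrain, hindbrain and spinal cord genes 8 were higher and 6 lower, while of the 24 measured 9 were not well above background in the RAX-positive cells and 11 in the eye. Hoxa2, of the hindbrain, was at -5.68 in the RAX-positive cells and not well above background in the eye, at least 2.46-fold higher, with the Wi control at -3.44. Of 19 general neural progenitor genes 7 were higher and 3 lower, with Sox3 at 4.86 against 0.84 (16.2-fold higher), Nes at 3.25 against 3.04 and Vim at 6.22 against 5.90.

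Pluripotency genes were higher in 11 of 22 cases and lower in none, with a median of 0.81. Lin28a and Sall4, which also mark early neural progenitors, were 11.8-fold and 12.0-fold higher, with Lin28a at 2.91 against -0.65. The defining genes of the pluripotent state were low: Pou5f1 was at -3.60 against -6.0 (5.28-fold higher) and stood at 3.86 in the RAX-negative cells, and Zfp42 was at -3.87 against -3.48. Eras, an ES cell form of Ras, was an exception at 0.14, at least 139-fold above the eye. In the mesoderm and endoderm list 10 of 21 were higher and 4 lower. Foxa2, of endoderm and floor plate, was at 0.15 and not well above background in the eye, at least 139.7-fold higher, and was at 3.79 in the RAX-negative cells. The organizer genes Gsc (9.09-fold) and Cer1 (at least 20.7-fold), both Nodal targets, were higher. Gata6 (-3.92 against -4.57) and T (-5.07 against -5.81) were within 2-fold and low. The RAX-negative cells of the same dishes were higher for these genes, and carry-over through the sort was not tested.

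Most cell cycle genes were within 2-fold, and most genes of the glycolysis and cholesterol lists were higher. Of 20 cell cycle genes 6 were higher and none lower, with 14 within 2-fold and a median of 0.83 against 0.33 for all genes, and the count of higher genes was 3 in the authors' deposited values. Mki67, of dividing cells, was at 5.98 against 5.20 and within 2-fold. Of 22 glycolysis and hypoxia genes 14 were higher and 2 lower, with Egln3 (9.1-fold) and Bnip3 at 6.01 against 3.22 (6.91-fold), both targets of the hypoxia factors. All 5 cultures were above the 3 tissues for Bnip3, with the Wi control at 7.15 and cortex at 3.71. Over the whole list the tissues differed, with median levels of 4.40 in cortex, 2.57 in the eye and 2.15 in diencephalon/hypothalamus, against 4.91 in the RAX-positive cells. Of 22 cholesterol synthesis genes 16 were higher and none lower and 6 within 2-fold, and the log2 differences of the whole list ran from 0.33 to 2.02. Nsdhl, a late enzyme of the pathway, was 4.04-fold higher and Srebf2, its regulator, 2.00-fold. Cortex was near the RAX-positive cells in the median level of the cholesterol list (2.68 against 2.78, with the eye at 1.69). The same held for the cell cycle list (4.86 against 4.78, with the eye at 3.85). In the list of amino acid and unfolded protein stress 10 of 21 were higher, among them Ddit4 at 6.92 against 3.63 (9.77-fold), and Slc7a11 was at least 14.4-fold lower.

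Imprinted genes were divided. Of 19, 10 were higher and 4 lower, with Magel2 (56.6-fold), Dlk1 (12.0-fold) and Meg3 (5.01-fold) higher and the growth genes Grb10 (26.5-fold), Igf2 (14.7-fold) and H19 (11.9-fold) lower. Dlk1 was at 7.21 in the RAX-positive cells and 7.01 in diencephalon/hypothalamus, against 3.63 in the eye. Xist, which is made from the inactive X chromosome of female cells, was not well above background in the male cells and at 0.75 in the eye of mixed sex, at least 112-fold lower. Of 17 control genes 14 were within 2-fold, with Actb at 7.98 against 7.88. The 1 lower gene was Hprt, of purine salvage, at -1.07 against 3.00, 16.7-fold lower. The other cultures were at -1.54 to -1.36, and E14Tg2A, the line of the Wi control, is known as a line deficient in Hprt.

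Outside the lists, 10 genes in each direction were taken by their difference as read, among those at least 2-fold in the authors' deposited values too. Many of them were not well above background on the dimmer array, and such genes have a bound and no established rank. Nkx2-9, of the ventral midline, was at 0.05, at least 130.2-fold higher, and Dbx1, of the diencephalon, was at 2.98 against -4.95, 243-fold higher, with diencephalon/hypothalamus at 5.43. Robo3, a guidance receptor of crossing axons, was 70.4-fold higher, Olig1, of oligodendrocyte and ventral progenitors, at least 38.4-fold, Gpr50, of the hypothalamus, at least 26.3-fold and Pkd2l1, a channel of fluid-contacting neurons, at least 58.5-fold. The vomeronasal receptor gene Vmn1r34 was at least 24.5-fold higher, and belongs to the receptor families counted above. On the lower side, the adult globin gene Hbb-bt was at least 11683-fold lower and the red cell antigen gene Kel at least 313-fold. Sln, of muscle calcium handling, was at least 181-fold lower, Fap, of fibroblasts, at least 629-fold, Meox1, of somite mesoderm, at least 125-fold and Wnt10a, of skin, at least 139-fold. Slc38a8, an amino acid transporter whose loss in humans disturbs foveal development, was at -5.34 against 4.47, 896-fold lower. C1qtnf7, Ctse and Pdzk1ip1 were at least 204-fold, 170.1-fold and 889-fold lower.

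Fos, Fosb and Egr4 were among the same 10 higher genes and led to a list of 22 measured immediate early genes, which cells switch on within minutes of a stimulus. The list was chosen after these values were seen. Of the 22, 18 were higher and none lower, with a median of 2.14. Fos was at 4.38 in the RAX-positive cells, 3.77, 2.09 and 2.25 in the 3 other sorted populations, 0.87 in the Wi control and -4.10, -5.15 and -4.65 in eye, diencephalon/hypothalamus and cortex. Egr1 was at 5.09 against 0.19 in the eye, higher by 4.91 in log2, and Fosb at 2.68 against -4.29, 125-fold. Egr4 was at -2.22 and not well above background in the eye, at least 27.1-fold higher. All 4 sorted arrays and the Wi control were above the 3 tissues for Fos, Fosb and Egr1. The median level of the list was 0.21 in the RAX-positive cells and 0.49 in the Wi control, for which the labels name no sort, against -2.56 in the eye. The sorted cells had been trypsinized and the tissues had not, and the part of this step in these values was not tested.

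To look at the eye's own genes without a chosen list, the 723 genes at least 4-fold higher in the eye than in both brain tissues were read in each culture. The eye array chose these genes, so a lower level elsewhere is in part built in, and the cultures are set against each other. In the RAX-positive cells 572 of the 723 were lower than in the eye, 17 higher and 119 (16.5%) within 2-fold and above background on both arrays, where 64.9% of all detected genes were. For comparison, the count was 88 (12.2%) in the RAX-negative cells after Activin, 52 (7.19%) in RAX-positive and 47 (6.5%) in RAX-negative SAG cells, and 82 (11.3%) in the Wi control. This order moved with the processing, since with normexp the 2 Activin arrays had 25 and 32 of 314 and in the authors' deposited values 27 and 41 of 370, RAX-positive first. The Wi control had 25 and 27 in these settings, the same numbers as the RAX-positive cells. The share of all genes well above background was 82.5% on the RAX-positive array and 65.3% to 74.1% on the other cultures, and its part in the order was not tested.

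**Figure D5:**
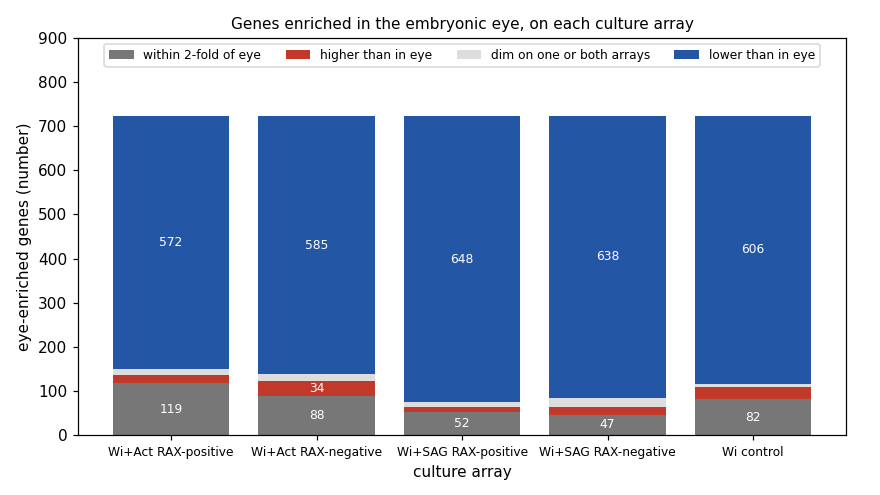
Number of the 723 eye-enriched genes by their state on each culture array (within 2-fold of the eye, higher, dim, lower), with a bar a culture. Wi+Act RAX-positive cells had 119 within 2-fold and 572 lower, and RAX-positive cells after SAG 52 and 648.

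By structure, all eye-enriched members of the eye field and retinal progenitor (8 of 8) and pigment epithelium (14 of 14) lists were lower in the RAX-positive cells. So were those of lens fibres (20 of 20), retinoic acid (10 of 10) and periocular mesenchyme and neural crest (9 of 9). Of all 723 genes 572 (79.1%) were lower, and of the pluripotency members 0 of 3. The eye array chose these members, so such counts are in part built in. The 10 eye-enriched genes with the most negative difference as read were Cryaa, Tfap2b, Foxc2, Dkk2, C1qtnf7, Slc38a8, Sln, Fap, Myog and Cryba1. Only Slc38a8 and the crystallins among them were well above background in the RAX-positive cells, so the place of the others in this order is not established. Of the 119 shared genes 36 had an eye level of at least -3. Cp, which oxidizes iron for export, was at 1.41 in the RAX-positive cells and 1.67 in the eye, while no other array exceeded -2.66. Sowaha was at 0.47 against -0.31, with the other arrays at -3.96 or below, and Neb, a giant protein of muscle filaments, at -0.94 against -1.02, with its 3 probes between -0.93 and 0.86. Prss23, a protease gene, and Ltbp1, which binds latent TGF-beta, were chosen after their values were seen. Prss23 was at 3.27 against 3.30 and Ltbp1 at 0.95 against 1.46. Hspb3 was at -2.51 against -1.72. The rest of the 10 most eye-enriched shared genes were dim on both arrays, from Opn4, the photopigment of intrinsically sensitive ganglion cells, at -4.12 against -3.37, and the peptide gene Gip at -4.39 against -3.43 to Fgf4 at -5.13 against -4.38, Fgf3 at -5.44 against -4.82, Alpk2 at -4.46 against -4.85 and Prl7d1 at -5.09 against -4.98.

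Over all genes, the RAX-positive profile correlated with the eye to much the same degree as with the brain tissues. Across 20566 genes well above background on all arrays, which share the array design and the RNA pooling, Pearson's r of the RAX-positive cells was 0.945 with the eye, 0.940 with diencephalon/hypothalamus and 0.950 with cortex, and Spearman's rho was 0.942, 0.938 and 0.949. Between cultures Pearson's r was 0.977 with the RAX-negative cells after Activin, 0.969 with RAX-positive cells after SAG and 0.930 with the Wi control. Of the genes higher than in the eye, 965 (14.3%) were within 2-fold of diencephalon/hypothalamus and 1112 (16.4%) within 2-fold of cortex, 1611 (23.8%) in either. Of the genes lower than in the eye, 957 (29.2%) and 1010 (30.8%) were within 2-fold of these tissues and 1388 (42.3%) in either. Genes across an array are not independent, and these counts describe the arrays. The same shares over all detected genes were not counted, so no likeness to brain can be read from them.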

How the data were processed

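RNA pooled from 3 sets of experiments was hybridised to 8 single-colour Agilent arrays, 1 a group. The authors deposited scanner intensities per spot, which per the file headers came from Feature Extraction 10.7.3.1 with probe positions on mm9; the submitters' processing notes name Feature Extraction 9.1 and limma. The authors also deposited a table of log2 values, with no background step or offset stated in the labels.

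The processed signal was divided by each array's 75th percentile and log2-transformed (Python 3.11.15, numpy 2.4.6, pandas 2.3.3). Control spots were left out, and so were 262 outlier probes of 55681. RefSeq accessions named 28361 probes, and the others kept the files' names. Where several probes stood for a gene, the one brightest on average across the 8 arrays was used. The size rule was run on arrays simulated from the eye levels with the reading error alone. That run does not cover differences between cultures, pools or scalings. With 1 array a group no test was run. Genes outside the lists were named as the 10 largest differences as read in each direction, dim arrays included and predicted genes left out. Each was at least 2-fold in the authors' deposited values too. Eye-enriched genes were named whether listed or not, again without predicted genes. They were the 10 most eye-enriched of those within 2-fold and the 10 with the most negative difference. The members and lists were chosen with earlier results of these data known. Alternatives were median and quantile scaling, normexp (limma 3.58.1 in R 4.3.3, offset 50), the authors' values, the mean of probes, stricter and looser filters, a 4-fold size, 8-fold enrichment and, chosen after seeing the data, differences relative to their median. A few genes are not reported here.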

Additional observations from a re-analysis of the deposited data

How the results depend on the processing

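No paired analysis was possible because each group has 1 array, and no array could be left out. Genes higher than in the eye numbered 3893 with both arrays above background, 3304 at 4-fold, 2728 in the authors' deposited values and 1912 with normexp, and lower genes 1607 at 4-fold and 1967 with normexp. Higher genes within 2-fold of cortex and of diencephalon/hypothalamus were 732 and 500 with normexp. Eye-enriched genes within 2-fold were 25 at 8-fold enrichment, 27 in the authors' values, 25 with normexp and 63 after quantile scaling. The correlation with eye, diencephalon/hypothalamus and cortex was 0.948, 0.944 and 0.954 in the authors' values, 0.953, 0.946 and 0.957 with normexp, and 0.926, 0.928 and 0.937 over genes above background on at least 1 array. Cortex was highest in each, and the order of the other pair turned in the last. Of 806 named or listed genes, 51 lost and 8 gained a call in the authors' values, 59 and 3 with normexp, 22 and 22 after quantile scaling and 171 and 0 at 4-fold; Trpm1 reversed to -5.25 as the mean of its probes. Lens fibre genes stayed at 22 lower under all 10 settings. The causes were not tested. Of the higher calls, 2868 rest on an eye level not well above background.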

Other observations

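Placental and extraembryonic genes were split, 4 of 13 detected genes being higher and 4 lower than in the eye. The X-linked reproductive homeobox gene Rhox9 was at -2.41 in the RAX-positive cells, 2.85 in the RAX-negative cells after Activin and -6.10 in the eye, 12.9-fold higher in the RAX-positive cells than in the eye. Tfap2c, of trophoblast and surface ectoderm, was 19-fold lower at -3.91 against 0.34, and stood at 3.18 in the Wi control. Sox21, which acts against Sox2 targets in neural progenitors, was 159-fold higher at 1.44 against -5.88. Fabp7, of radial glia, was at 0.67 in the RAX-positive cells and 7.11 in the Wi control, against 0.49 in the eye. These genes were chosen after their values were seen.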
